A study of Mus musculus with 10 samples.

Results

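The 9 genes described here are cell-cycle inhibitors and genes widely used as markers of cellular senescence: Cdkn1a, Cdkn2a, Cdkn2b, Cdkn2c, Gdf15, Trp53, Mdm2, Lmnb1 and Il6. They were taken by gene name from a table of read counts for 38962 genes, and were chosen with earlier results of these data known. Femurs of male C57BL/6J mice were compared between 5 Old mice aged 22 months and 5 Young mice aged 2 months, with no other treatment or allele in either group. The Old mice came from the colony of the National Institute on Aging and were aged further in house, whereas Young mice were bought from the Jackson Laboratory, so age and supplier cannot be told apart. Each femur was flushed of marrow and ground to powder before RNA was extracted, so every library is a mixture of the cells left in 1 bone. In such bulk RNA, fewer cells of a type and less RNA per cell cannot be told apart.

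Cellular senescence is a lasting exit from the cell cycle that cells enter after DNA damage, telomere loss or oncogene activity. The exit is enforced by proteins that block cyclin-dependent kinases (CDKs), so that the retinoblastoma protein keeps its hold on E2F factors and the genes of DNA replication stay silent. One arm runs through p53, which switches on the inhibitor p21, and the other through the inhibitors of the INK4 family. Senescent cells also lose lamin B1 from the nuclear envelope and secrete cytokines, proteases and growth factor binding proteins, a mixture called the senescence-associated secretory phenotype. In bone, senescent cells are known to accumulate with age among osteocytes, myeloid cells and stromal progenitors.

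The libraries held 31788232 to 45075335 counts in Old mice and 33447009 to 40395050 counts in Young mice. Library Old 1 stood apart in its share of mitochondrial counts (12.2%, against 1.36% to 5.73% in the other 9 libraries). The gene Gm26917 alone took 16.1% to 31.0% of counts in Old and 14.5% to 24.0% in Young libraries. All shares of counts given here are of the whole library, Gm26917 included, without further scaling. All 8 osteoblast markers and all 5 osteocyte markers were detected and tested, as the label bone requires. The osteoblast markers took 1.52% to 3.96% of counts in Old and 4.70% to 7.83% in Young libraries (two-sided exact permutation test, p = 0.00794, the smallest this design allows, and 0.0595 after adjustment over 15 such shares). Of all 22088 genes tested with edgeR, 1610 passed an adjusted p threshold of 0.05 and were called (7.29%), 812 of them higher in Old (3.68%) and 798 lower in Old (3.61%), and 7.8% of tested genes had groups that did not overlap.

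Levels are in CPM, that is counts scaled to the size of the library and by the trimmed mean of M values. Of the 9 genes, 8 had enough counts to be tested, and Il6 did not. Gdf15 was the only 1 of the 8 called higher in Old bone (12.5% called, against 7.29% of all tested genes), and 0 were called lower. This call was lost when the level of T cell or plasma cell markers entered the fit as a covariate. At an unadjusted p under 0.05, 2 were higher (Gdf15 and Cdkn2a) and 0 were lower in edgeR. At that threshold 2948 of all 22088 tested genes were higher and 2731 were lower. The median log2 fold change over the 8 genes was 0.02, and over all tested genes it was 0.01. Gdf15 was also the only 1 of the 8 whose Old and Young libraries did not overlap, beside 7.8% of all tested genes.

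**Figure D1:**
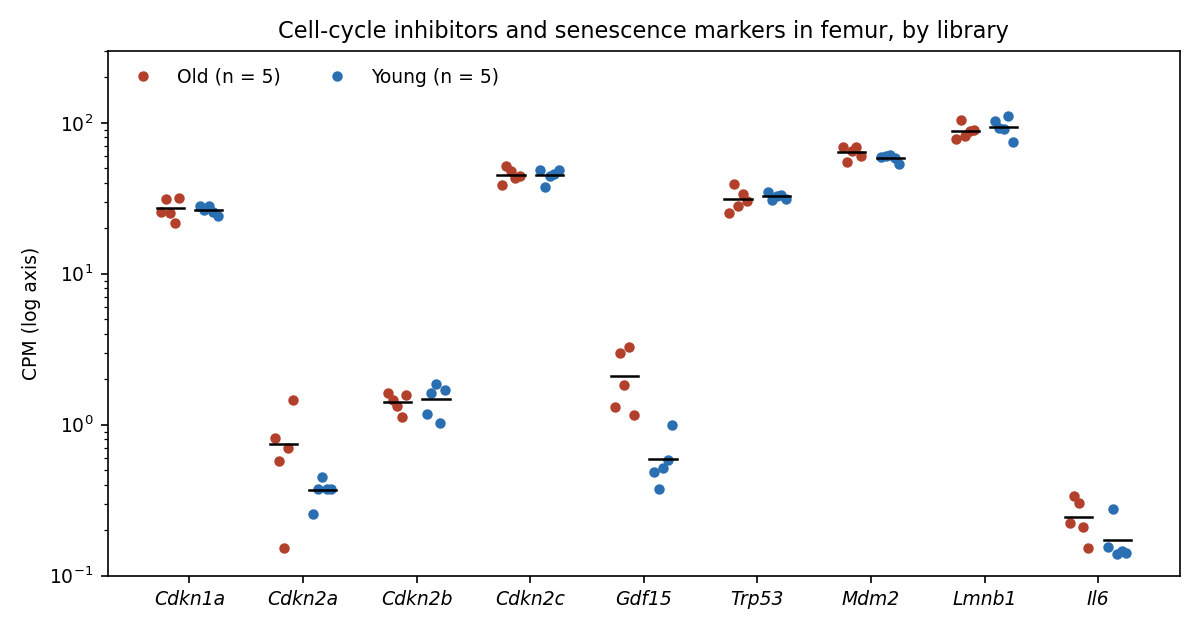
Levels of the 9 genes in CPM (log axis) in each library, with Old libraries in red to the left of Young libraries in blue and the group mean as a black line (n = 5 each). Gdf15 is the gene whose Old points, at 1.16 to 3.26 CPM, all lie above its Young points, at 0.378 to 0.991 CPM, and the Cdkn2a points of Old mice are spread from 0.152 to 1.47 CPM.

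Promoter windows are printed here for Cdkn1a, as the textbook p53 target of the group, for Cdkn2a, because its row pools transcripts from separate starts, and for Gdf15, as the gene that was called. They are RefSeq windows on GRCm38.p6 that run from 250 bases before to 50 bases after an annotated transcription start, 5′ to 3′ on the strand of the gene. Of the 9 genes, 8 have such a window in the table used here. Both strands were searched for 6 motifs: the cyclic AMP response element TGACGTCA, the AP-1 site TGANTCA, an ATF4-CEBP composite TGATGNAAN, the TATA box TATAAA, the GC box GGGCGG and the p53 half-site. Capitals mark matches, and positions count from +1 at the annotated start. Among 32851 windows of the same length, 1.79% hold the cyclic AMP response element, 7.81% the AP-1 site, 3.95% the ATF4-CEBP composite, 13.6% the TATA box, 35.7% the GC box and 8.36% the p53 half-site. A match is a description of letters and not a bound site.
Cdkn1a, chr17:29090729-29091028, + strand: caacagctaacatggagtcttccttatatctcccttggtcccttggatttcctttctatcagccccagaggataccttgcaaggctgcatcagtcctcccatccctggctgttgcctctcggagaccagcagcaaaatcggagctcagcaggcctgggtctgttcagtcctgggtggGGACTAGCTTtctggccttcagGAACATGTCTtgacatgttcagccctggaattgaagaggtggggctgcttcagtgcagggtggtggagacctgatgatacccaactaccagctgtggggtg
Cdkn2a, p19Arf start, chr4:89294570-89294869, - strand: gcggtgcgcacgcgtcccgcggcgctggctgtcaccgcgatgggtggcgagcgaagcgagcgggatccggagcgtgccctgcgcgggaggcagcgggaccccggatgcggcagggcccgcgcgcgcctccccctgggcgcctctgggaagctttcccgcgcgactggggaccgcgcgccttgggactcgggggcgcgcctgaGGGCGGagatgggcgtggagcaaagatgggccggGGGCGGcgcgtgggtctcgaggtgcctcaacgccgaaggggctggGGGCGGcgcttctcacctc
Cdkn2a, p16Ink4a start, chr4:89282143-89282442, - strand: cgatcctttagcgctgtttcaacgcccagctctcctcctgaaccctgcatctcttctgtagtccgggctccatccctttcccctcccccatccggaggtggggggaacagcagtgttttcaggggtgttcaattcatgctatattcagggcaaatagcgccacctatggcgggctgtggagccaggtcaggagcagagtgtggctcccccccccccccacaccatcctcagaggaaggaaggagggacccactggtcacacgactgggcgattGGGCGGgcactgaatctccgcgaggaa
Gdf15, chr8:70632407-70632706, - strand: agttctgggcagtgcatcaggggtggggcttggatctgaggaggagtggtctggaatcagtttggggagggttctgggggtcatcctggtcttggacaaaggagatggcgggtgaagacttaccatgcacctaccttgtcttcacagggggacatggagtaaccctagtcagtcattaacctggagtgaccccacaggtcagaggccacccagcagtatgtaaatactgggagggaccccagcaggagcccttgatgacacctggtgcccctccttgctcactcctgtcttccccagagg
This Cdkn1a window holds p53 half-sites at -73 and -51. A second one, at a later start (chr17:29093519-29093818), holds GC boxes at -104 and -46 and no p53 half-site. Half-sites were also found in the windows of Trp53 at -75, Mdm2 at -186 and Il6 at -204. The p19Arf window of Cdkn2a holds GC boxes at -48, -14 and +32 and has a GC content of 77.0%, and the p16Ink4a window holds 1 GC box at +24 and has a GC content of 60.3%. None of the 6 motifs was found in this Gdf15 window or in a second one at chr8:70632046-70632345.

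Cdkn1a encodes p21, the CIP/KIP inhibitor that p53 induces and that blocks CDK2. The gene lies at chr17:29090976-29100727 on GRCm38, and 273 bp (7.68%) of its exon length overlap a gene on the opposite strand, whose reads cannot be told from its own if counting ignored strand. Its levels were 25.5, 31.1, 25.2, 21.6 and 31.8 CPM in Old libraries 1 to 5, against 27.9, 26.6, 28.0, 25.6 and 24.0 CPM in Young libraries 1 to 5. Old 2 and Old 5 lay above every Young library and Old 4 below every one, so the groups overlapped. The log2 fold change was 0.03 ± 0.11 (SE), with a 95% interval of -0.21 to 0.28 (edgeR, adjusted p = 0.876).

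Cdkn2a is 1 gene with separate promoters for 2 unrelated proteins. The p16Ink4a transcript starts in a first exon at chr4:89281986-89282192 and encodes an inhibitor of CDK4 and CDK6, and the p19Arf transcript starts in a first exon at chr4:89294334-89294653 and encodes a protein that holds Mdm2 away from p53. The transcripts share their later exons in different reading frames, and the table counts both in a single row, so their shares cannot be given. The counts were 29, 29, 4, 30 and 58 in Old libraries 1 to 5, against 10, 15, 13, 18 and 16 in Young libraries 1 to 5. These correspond to 0.811, 0.577, 0.152, 0.703 and 1.47 CPM in Old mice, against 0.257, 0.378, 0.451, 0.376 and 0.377 CPM in Young mice.

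Of the Old libraries, 4 had more Cdkn2a than every Young library, and Old 3 had less than every Young library. The log2 fold change was 1.04 ± 0.41 (SE), with a 95% interval of 0.15 to 1.92, and did not pass the test (edgeR, adjusted p = 0.136, unadjusted p = 0.0252). The call turned on single libraries, at a log2 fold change of 1.27 without Old 3 (adjusted p = 0.0403) and of 0.65 without Old 5 (adjusted p = 0.328) in edgeR. On the log2 scale the SD between mice was 1.06 in Old and 0.26 in Young libraries. Old 3 had the lowest and Old 5 the highest osteoblast share of the Old libraries (1.52% and 3.96%), and the part of this share in the Cdkn2a counts was not tested.

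Cdkn2b and Cdkn2c encode p15Ink4b and p18Ink4c, INK4 inhibitors of CDK4 and CDK6. Cdkn2b, the neighbour of Cdkn2a at chr4:89306299-89311039, was measured at 1.62, 1.45, 1.33, 1.12 and 1.57 CPM in Old libraries 1 to 5, against 1.18, 1.61, 1.87, 1.02 and 1.70 CPM in Young libraries 1 to 5. All 5 Old values lay within the Young range. Its log2 fold change was -0.05 ± 0.21 (SE), with a 95% interval of -0.49 to 0.40 (edgeR, adjusted p = 0.903). Cdkn2c, at chr4:109660876-109667189, was measured at 38.6, 51.6, 47.7, 43.2 and 44.5 CPM in Old libraries 1 to 5, against 48.3, 37.8, 44.3, 46.0 and 48.8 CPM in Young libraries 1 to 5. Old 2 was the only Old library above the Young range, and the means were 45.1 ± 4.87 CPM in Old and 45.1 ± 4.44 CPM in Young mice (SD, n = 5 each). Cdkn2c had a log2 fold change of 0.00 ± 0.10 (SE), with a 95% interval of -0.22 to 0.22 (edgeR, adjusted p = 0.995).

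Across the whole INK4 and CIP/KIP family, 7 genes were tested and 0 were called in either direction, against 7.29% of all tested genes. At an unadjusted p under 0.05 in edgeR, 1 was higher (Cdkn2a) and 0 were lower. DESeq2 did not call Cdkn2a either (adjusted p = 0.0901). The median log2 fold change of the family was -0.05. Of 15 G1 cyclins, CDKs, pocket proteins and E2F factors, on which these inhibitors act, 0 were called by edgeR, against 7.29% of all tested genes. The median log2 fold change of these 15 genes was -0.15. At an unadjusted p under 0.05, 2 were higher and 4 were lower, against 2948 higher and 2731 lower of all 22088 tested genes. In edgeR Ccne2 came nearest to a call, with a log2 fold change of -0.84 (adjusted p = 0.0543). DESeq2 called 1 of the 15 higher, and the paper's own DESeq2 result lists Ccne2 as lower in aged bone.

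Trp53 encodes p53, and Mdm2 encodes the ubiquitin ligase that marks p53 for destruction and is itself a p53 target. Trp53, at chr11:69580359-69591873, was measured at 25.2, 39.2, 28.3, 33.7 and 30.3 CPM in Old libraries 1 to 5, against 34.99, 31.0, 32.5, 33.2 and 31.5 CPM in Young libraries 1 to 5. The Old values ran on both sides of the narrow Young range, with 1 above and 3 below it, and the SD on the log2 scale was 0.24 in Old and 0.07 in Young mice. Its log2 fold change was -0.06 ± 0.11 (SE), with a 95% interval of -0.30 to 0.19 (edgeR, adjusted p = 0.791). Mdm2, at chr10:117688875-117710758, was measured at 69.2, 55.4, 65.2, 68.9 and 60.0 CPM in Old libraries 1 to 5, against 59.0, 60.7, 60.8, 58.7 and 53.4 CPM in Young libraries 1 to 5. Old 1, Old 3 and Old 4 lay above every Young library, and the other 2 lay within the Young range. Mdm2 had a log2 fold change of 0.12 ± 0.09 (SE), with a 95% interval of -0.07 to 0.32 (edgeR, adjusted p = 0.416).

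**Figure D2:**
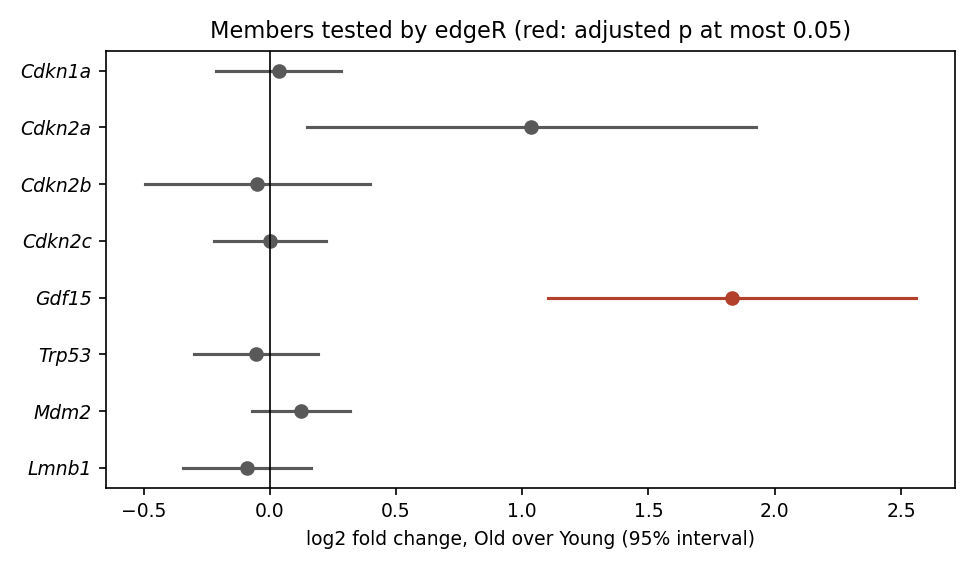
Log2 fold change of Old over Young (horizontal axis) for the 8 tested genes from the edgeR fit, as points with 95% intervals, red where the adjusted p was at most 0.05. Gdf15 (1.10 to 2.56) is the red interval, the Cdkn2a interval (0.15 to 1.92) is wide, and the other 6 intervals include 0.

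Among 14 tested regulators and relatives of p53 (Trp73 had too few counts), 2 rose in Old bone, 0 fell, and the median log2 fold change was -0.07. That is 14.3% called, against 7.29% of all tested genes. Trp63, a relative of p53 known for its role in stratified epithelia, had 4.14, 2.49, 5.81, 3.05 and 4.05 CPM in Old libraries 1 to 5, against 1.23, 1.13, 1.39, 0.960 and 1.82 CPM in Young libraries 1 to 5. Every Old value lay above every Young value, and the log2 fold change was 1.57 ± 0.24 (SE; edgeR, adjusted p = 0.00234). Trp53bp1, which encodes the DNA break repair protein 53BP1, averaged 62.7 ± 4.85 CPM in Old and 49.2 ± 3.05 CPM in Young mice (SD, n = 5 each; edgeR, adjusted p = 0.0314). The Trp53bp1 call was lost in the fits without Old 3, Old 4, Old 5, Young 2 or Young 4, where the edgeR adjusted p reached 0.0961. It was also lost with total counts alone (log2 fold change 0.18, edgeR adjusted p = 0.432), with no filter on low counts (0.0624) and with the marrow cell markers (neutrophil, B cell and red cell precursor) as a covariate (0.0897).

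Of 30 target genes of p53, 2 rose and 1 fell in Old bone (10% called, against 7.29% of all tested genes). The median log2 fold change was 0.09, with 21 positive and 9 negative values. Eda2r, a receptor of the tumor necrosis factor receptor family, had 14.7, 8.54, 13.7, 5.25 and 11.2 CPM in Old libraries 1 to 5, against 3.62, 5.04, 4.96, 3.01 and 4.88 CPM in Young libraries 1 to 5. Its groups did not overlap, though Old 4 was close to the highest Young library, and its log2 fold change was 1.31 ± 0.26 (SE; edgeR, adjusted p = 0.0101). Xpc, a sensor of DNA damage in nucleotide excision repair, averaged 31.0 ± 3.18 CPM in Old and 24.0 ± 2.78 CPM in Young mice (SD, n = 5 each; edgeR, adjusted p = 0.0498). Ddit4, an inhibitor of mTORC1 signalling that stress and glucocorticoids induce, averaged 24.1 ± 6.30 CPM in Old and 50.8 ± 19.1 CPM in Young mice (SD, n = 5 each; edgeR, adjusted p = 0.0325). Xpc kept its call only in the fit without Young 1 among the 10 fits that left out 1 library (largest edgeR adjusted p = 0.137). Ddit4 lost its call without Old 2, Old 3, Old 5, Young 2, Young 4 or Young 5 (largest edgeR adjusted p = 0.0796).

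Gdf15 encodes a secreted relative of the TGF-β family that cells release under mitochondrial, nutrient and DNA damage stress and that acts on the brainstem receptor GFRAL, with the co-receptor RET, to reduce food intake. It lies at chr8:70629393-70632456 on GRCm38, and no exon of another gene overlaps it. The counts were 47, 151, 48, 139 and 46 in Old libraries 1 to 5, against 19, 15, 15, 28 and 42 in Young libraries 1 to 5. These correspond to 1.31, 3.004, 1.82, 3.26 and 1.16 CPM in Old mice, against 0.487, 0.378, 0.520, 0.585 and 0.991 CPM in Young mice. Old 2 and Old 4 were the highest, and the gap between the groups was narrow, between Old 5 and Young 5. The mean was 2.11 ± 0.965 CPM in Old and 0.592 ± 0.235 CPM in Young mice (SD, n = 5 each).

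Gdf15 rose 3.56-fold in Old bone, a log2 fold change of 1.83 ± 0.34 (SE) with a 95% interval of 1.10 to 2.56 (edgeR, adjusted p = 0.00679). The paper's own DESeq2 result from the same libraries also lists Gdf15 as higher in aged bone. The edgeR log2 fold change stayed at or above 1.62 over the 10 fits that left out 1 library, and the adjusted p stayed at or below 0.0251. Without Old 1, the library with the high mitochondrial share, the log2 fold change was 1.96. Old 2 and Old 4, the libraries with the highest Gdf15, also had the highest share of 6 macrophage and monocyte markers (0.102% and 0.0771%, against 0.0550% to 0.0735% in Young libraries). The other 3 Old libraries had 0.0260% to 0.0438%, below every Young library, and 0 of the 6 markers were called. The same 2 libraries had the highest share of 6 T cell markers (0.00268% in Old 2 and 0.00475% in Old 4, against 0.00102% to 0.00132% in Young libraries). Of the T cell markers, 2 of 6 were called higher in Old bone, against 3.68% of all tested genes. The median log2 fold change of the T cell markers was 1.10, and their share differed between the ages before adjustment (two-sided exact permutation test, p = 0.0317, adjusted p = 0.0952). Old 2 and Old 4 also had the highest share of 6 plasma cell markers (0.0248% in each, against 0.00998% to 0.0136% in the other Old and 0.0125% to 0.0155% in Young libraries), of which 1 was called higher and 1 lower. The 7 neutrophil markers took 0.517% of counts in Old 2 and 0.262% in Old 4, against 0.111% to 0.187% in the other Old and 0.146% to 0.290% in Young libraries, and 0 of them were called.

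The Gdf15 call depended on which of these marker levels entered the fit as a covariate, in alternatives chosen after seeing the data. With the macrophage markers the log2 fold change of Gdf15 was 1.78 (edgeR, adjusted p = 0.00386). With the plasma cell markers it was 1.31 (edgeR, adjusted p = 0.0663) and with the T cell markers 1.07 (edgeR, adjusted p = 0.161), so the call was lost in both. Without Old 2 or Old 4 the log2 fold change of Gdf15 was 1.67 or 1.62, and the call was kept. The share of T cell markers itself differed between the ages before adjustment only (two-sided exact permutation test, p = 0.0317, adjusted p = 0.0952). Its highest values were in Old 2 and Old 4. Whether Gdf15 transcripts came from T cells or plasma cells was not tested.

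**Figure D3:**
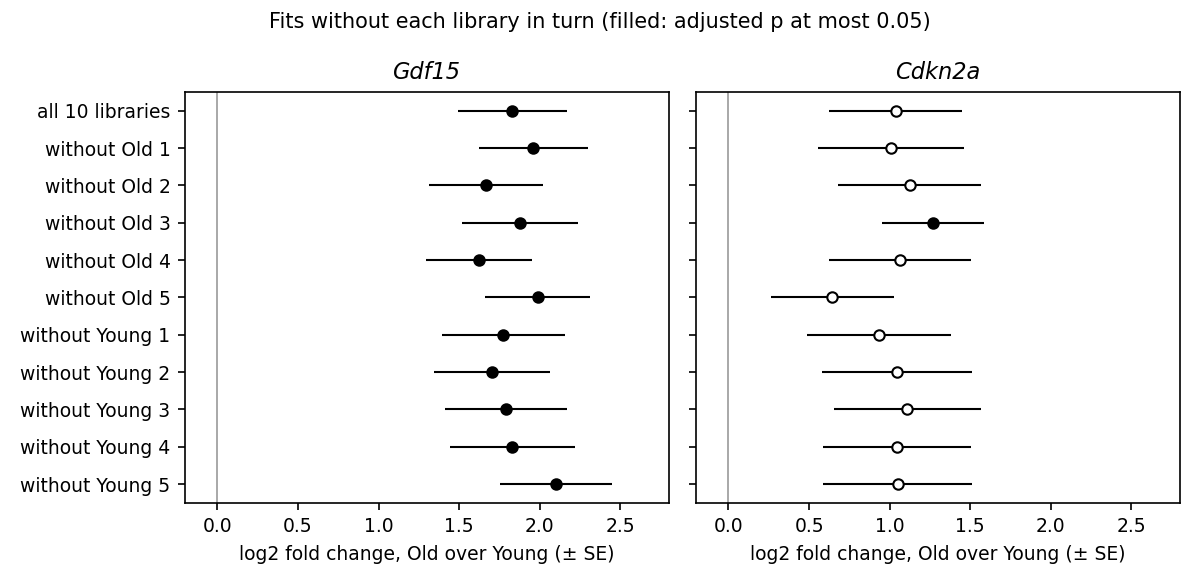
Log2 fold change of Old over Young with its SE (horizontal axis) for Gdf15 and Cdkn2a in edgeR fits of all 10 libraries and without each library in turn, filled where the adjusted p was at most 0.05. All Gdf15 points are filled, the lowest at 1.62, while the Cdkn2a points run from 0.65 without Old 5 to 1.27 without Old 3, which is the filled one.

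The genes whose log2 CPM tracked Gdf15 most closely over the 10 libraries were Trem2, a lipid-sensing receptor of macrophages and osteoclasts (Pearson r = 0.972), Rnf43, a ubiquitin ligase that removes Wnt receptors (r = 0.966), and 6430548M08Rik (r = 0.960). All 3 were themselves higher in Old bone, so the correlations include the difference between the ages and are given as a description. Trem2 had 5.34, 8.87, 6.53, 11.5 and 5.97 CPM in Old libraries 1 to 5, against 3.64, 3.25, 2.91, 3.78 and 5.12 CPM in Young libraries 1 to 5. As with Gdf15, Old 2 and Old 4 were the highest and Young 5 was the highest of the Young libraries. Trem2 had a log2 fold change of 1.03 (edgeR, adjusted p = 0.0135).

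Gfral had too few counts to be tested, and Ret, named after its values were seen, had a log2 fold change of -0.19 (edgeR, adjusted p = 0.533). Gdf15 is a known target of the integrated stress response, in which phosphorylation of eIF2α favours translation of ATF4. Of 17 tested genes of that response, 0 rose and 1 fell in Old bone (5.88% called, against 7.29% of all tested genes). The median log2 fold change of the 17 genes was 0.05. The gene that fell was Nupr1, a stress-induced chromatin protein, with 15.3 ± 5.16 CPM in Old and 26.7 ± 4.99 CPM in Young mice (SD, n = 5 each; edgeR, adjusted p = 0.0438). Its call was kept only without Old 2, Old 5 or Young 5 among the fits that left out 1 library (largest edgeR adjusted p = 0.105).

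Lmnb1 encodes lamin B1, a filament of the nuclear lamina that is lost from senescent cells and abundant in dividing ones. It lies at chr18:56707813-56753424 on GRCm38. Its levels were 78.4, 104, 81.5, 88.3 and 89.0 CPM in Old libraries 1 to 5, against 102, 92.3, 90.7, 110 and 74.1 CPM in Young libraries 1 to 5. All 5 Old values lay within the Young range. The log2 fold change was -0.09 ± 0.12 (SE), with a 95% interval of -0.34 to 0.16 (edgeR, adjusted p = 0.670), which corresponds to a ratio of 0.789 to 1.12.

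Of 16 tested genes of the nuclear lamina, its linkers and the chromatin proteins tied to senescence, 2 rose and 1 fell, beside a median log2 fold change of 0.02. That is 18.8% called, against 7.29% of all tested genes. Syne1 and Syne2 encode nesprins, which link the nuclear envelope to the cytoskeleton. Syne2 averaged 192 ± 17.5 CPM in Old and 135 ± 9.51 CPM in Young mice (SD, n = 5 each; edgeR, adjusted p = 0.00837), and Syne1 averaged 1426 ± 144 CPM in Old and 1013 ± 55.7 CPM in Young mice (SD, n = 5 each; edgeR, adjusted p = 0.0266). Neither Syne2 nor Syne1 was called when libraries were scaled by total counts alone (edgeR, adjusted p = 0.149 and 0.262), and Syne1 was lost without Old 3, Young 1, Young 2 or Young 4 (largest adjusted p = 0.0832). Ezh2, the Polycomb methyltransferase that keeps the Cdkn2a locus silent, had 67.2, 63.5, 54.4, 52.7 and 70.6 CPM in Old libraries 1 to 5, against 91.5, 101, 86.5, 102 and 69.8 CPM in Young libraries 1 to 5. Only Young 5 fell within the Old range, and the log2 fold change was -0.55 ± 0.12 (SE; edgeR, adjusted p = 0.0179, 0.0582 without Young 2 and 0.0616 with the marrow cell markers as a covariate).

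**Figure D4:**
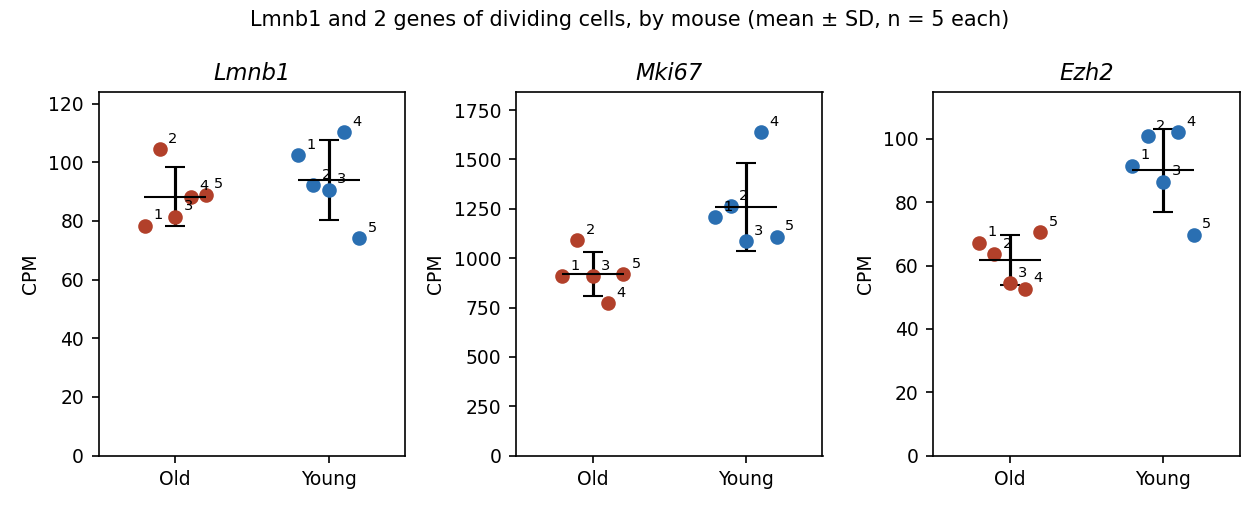
Levels in CPM (vertical axes, from 0) of Lmnb1, of Mki67, which encodes the proliferation antigen Ki-67 and was added after its values were seen, and of Ezh2 in each library, Old in red and Young in blue with the replicate number beside each point and the mean ± SD in black (n = 5 each). The Old Lmnb1 points lie within the Young range of 74.1 to 110 CPM, while 4 of the 5 Young Ezh2 points lie above every Old point. Mki67 was not called (log2 fold change -0.46; edgeR, adjusted p = 0.0738), and its groups overlapped.

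Genes of DNA replication and mitosis, which the inhibitors above hold silent, had negative log2 fold changes in 20 of 20 cases, with a median of -0.45. Of these, 5 fell past the test (25% called, against 7.29% of all tested genes) and 0 rose. At an unadjusted p under 0.05 in edgeR 19 were lower, against 2731 of all 22088 tested genes. Bub1, a kinase of the spindle checkpoint, had 19.7, 19.4, 16.4, 17.3 and 19.6 CPM in Old libraries 1 to 5, against 25.4, 32.1, 24.96, 36.2 and 22.5 CPM in Young libraries 1 to 5. Its groups did not overlap, and the log2 fold change was -0.61 ± 0.13 (SE; edgeR, adjusted p = 0.0146). Ccna2, which encodes cyclin A2, and the replicative helicase genes Mcm4, Mcm2 and Mcm6 had log2 fold changes of -0.72, -0.58, -0.48 and -0.41 (edgeR, adjusted p = 0.0400, 0.0436, 0.0438 and 0.0498), all with overlapping groups.

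The 20 genes took 0.158% to 0.278% of counts in Old and 0.201% to 0.405% in Young libraries (two-sided exact permutation test, p = 0.0317, adjusted p = 0.0952). The number called varied from 1 in each fit without Old 1, Old 3, Old 4, Old 5, Young 1, Young 2 or Young 4, through 7 without Young 3, to 14 without Old 2. It was 12 with DESeq2, 9 with no filter on low counts, 1 with total counts alone, 1 with the muscle markers as a covariate 0 with the marrow cell markers and 0 with the T cell markers as a covariate, and 9 with the plasma cell markers. The share of 6 B cell markers moved the same way, at 0.0141% to 0.0198% in Old and 0.0226% to 0.0304% in Young libraries (two-sided exact permutation test, p = 0.00794, adjusted p = 0.0595). Of these 6 markers 3 were called lower, against 3.61% of all tested genes.

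Il6 encodes IL-6, the cytokine most often taken as a sign of the secretory phenotype. It lies at chr5:30013114-30019981 on GRCm38. The counts were 8, 17, 8, 9 and 6 in Old libraries 1 to 5, against 6, 11, 4, 7 and 6 in Young libraries 1 to 5. These correspond to 0.246 ± 0.0749 CPM in Old and 0.171 ± 0.0593 CPM in Young mice (SD, n = 5 each), and the groups overlapped. A difference could not be tested at this depth under the filter on low counts. Of 14 tested receptors and signal carriers of the IL-6 family, 0 were called by edgeR in either direction, against 7.29% of all tested genes. DESeq2 called 2 of the 14 higher. At an unadjusted p under 0.05 in edgeR 2 were higher and 0 lower, against 2948 higher and 2731 lower of all 22088 tested genes. The median log2 fold change of these 14 genes was 0.06.

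Of 42 secreted factors of the senescence-associated phenotype, 33 were tested, and 4 rose while 5 fell in Old bone, with a median log2 fold change of 0.03. That is 27.3% called, against 7.29% of all tested genes. Il6 was among the 9 with too few counts, as were the chemokines Ccl2, Ccl7, Cxcl1 and Cxcl2. At an unadjusted p under 0.05, 9 were higher and 9 were lower in edgeR, against 2948 higher and 2731 lower of all 22088 tested genes. Those that rose were the cytokine Il1b, the neutrophil chemokine Cxcl5, the T cell chemokine Ccl5 and the angiogenic factor Vegfa, and those that fell included the insulin-like growth factor binding proteins Igfbp3 and Igfbp2, the protease inhibitor Timp1 and the collagenase Mmp13.

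Il1b had 8.22, 10.1, 11.2, 16.7 and 9.24 CPM in Old libraries 1 to 5, against 7.82, 6.02, 4.09, 4.95 and 4.48 CPM in Young libraries 1 to 5. Its groups did not overlap, and the log2 fold change was 1.02 ± 0.21 (SE; edgeR, adjusted p = 0.0132, and 0.266 with the T cell and 0.0781 with the plasma cell markers as a covariate). Ccl5 had 1.62, 3.60, 1.40, 4.66 and 2.48 CPM in Old libraries 1 to 5, against 1.13, 1.28, 1.18, 1.06 and 1.09 CPM in Young libraries 1 to 5. The highest Ccl5 values were again in Old 4 and Old 2, the libraries with the most T cell markers, and the log2 fold change was 1.28 (edgeR, adjusted p = 0.0200, 0.0568 without Young 4, and 0.588 with the T cell and 0.336 with the plasma cell markers as a covariate). Cxcl5 averaged 3.50 ± 0.974 CPM in Old and 1.86 ± 0.191 CPM in Young mice (SD, n = 5 each; edgeR, adjusted p = 0.0172, 0.0535 without Young 2, 0.0631 with total counts alone and 0.0525 with the marrow cell markers as a covariate). Vegfa averaged 123 ± 34.9 CPM in Old and 73.5 ± 16.1 CPM in Young mice (SD, n = 5 each; edgeR, adjusted p = 0.0420). Vegfa kept its call only without Old 2 or Young 3 among the fits that left out 1 library (largest edgeR adjusted p = 0.108).

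Igfbp3 had 8.53, 8.54, 8.88, 4.69 and 9.31 CPM in Old libraries 1 to 5, against 20.1, 23.3, 22.4, 19.1 and 20.05 CPM in Young libraries 1 to 5. Every Old value was less than every Young value, and the log2 fold change was -1.39 ± 0.16 (SE; edgeR, adjusted p = 3.33e-04). Timp1 had 4.81, 6.25, 1.56, 4.03 and 7.97 CPM in Old libraries 1 to 5, against 16.5, 17.8, 25.5, 21.5 and 10.4 CPM in Young libraries 1 to 5. Its groups did not overlap, and the log2 fold change was -1.88 ± 0.36 (SE; edgeR, adjusted p = 0.0112). With the T cell markers as a covariate the log2 fold change of Timp1 was -1.82 ± 0.60 (SE; edgeR, adjusted p = 0.131). Mmp13 and Igfbp2 had log2 fold changes of -1.70 and -1.73 (edgeR, adjusted p = 0.0349 and 0.0341) and overlapping groups. Both calls were lost without Old 2, Old 3, Old 4, Young 2, Young 3 or Young 4, and that of Igfbp2 also without Old 1 (largest edgeR adjusted p of 0.0973 for Mmp13 and 0.101 for Igfbp2). Osteoblasts are a known source of these factors, and 5 of the 8 osteoblast markers were also called lower in Old bone, against 3.61% of all tested genes. The part of the osteoblast share in the falls was not tested.

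**Figure D5:**
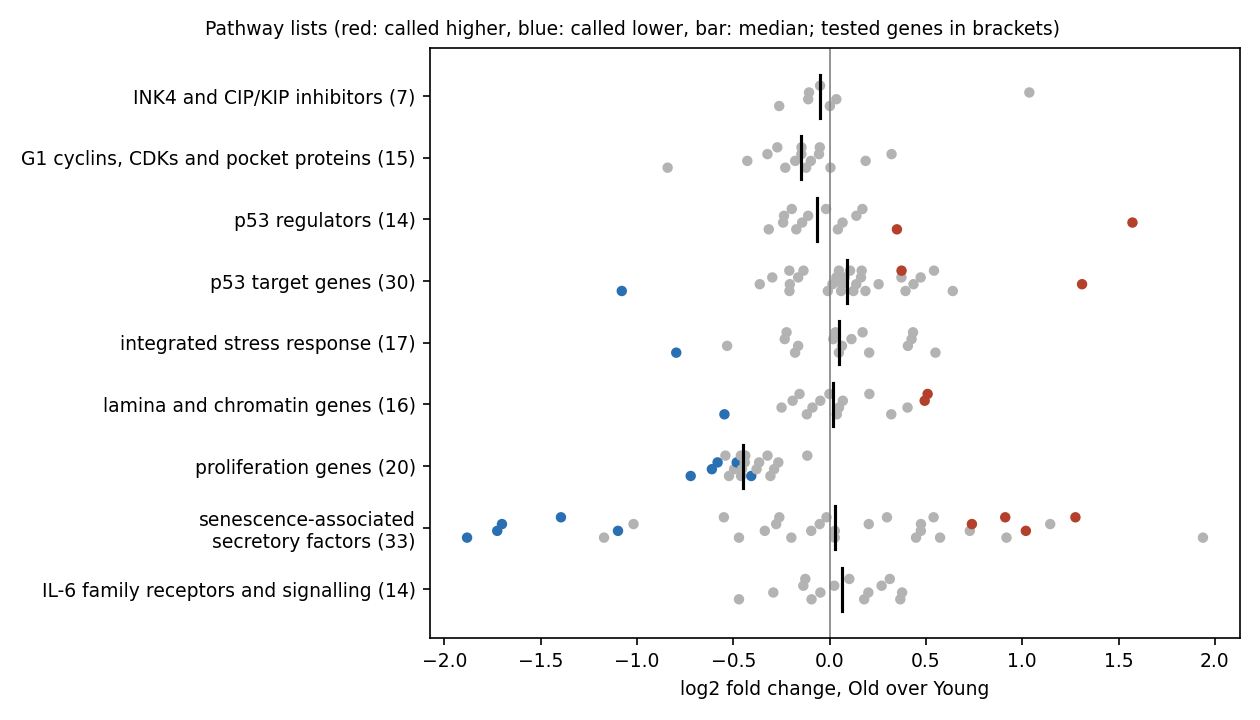
Log2 fold change of Old over Young (horizontal axis) for each tested gene of 9 pathway lists, red where called higher, blue where called lower, grey where not called, with the list's median as a black bar. All 20 proliferation genes lie left of 0 with a median of -0.45, and the secretory factors spread to both sides with 4 red and 5 blue points.

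Per kilobase of exon, Lmnb1 was the most abundant of the 9 genes, with a level of 29.8 CPM per kilobase in Old and 31.7 in Young bone. It was followed by Cdkn2c (16.8 in Old, 16.8 in Young), Mdm2 (12.5 in Old, 11.5 in Young), Trp53 (7.75 in Old, 8.07 in Young) and Cdkn1a (7.62 in Old, 7.44 in Young), all as levels in CPM per kilobase. On the same scale Cdkn2b (1.02 in Old, 1.06 in Young), Gdf15 (1.14 in Old, 0.320 in Young), Cdkn2a (0.633 in Old, 0.314 in Young) and Il6 (0.101 in Old, 0.0706 in Young) were near or below 1. Among all tested genes the levels per kilobase stood between the 16.2 percentile for Cdkn2a and the 96.8 percentile for Lmnb1. Lmnb1, Cdkn2c, Mdm2 and Trp53 kept this order in 5 of 5 libraries of each group. Trp53 was above Cdkn1a in 2 of 5 Old and 5 of 5 Young libraries, Cdkn2b was above Gdf15 in 2 of 5 Old and 5 of 5 Young libraries, and Gdf15 was above Cdkn2a in 4 of 5 Old and 2 of 5 Young libraries, so these neighbours were not separated in every library.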

How the data were processed

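Total RNA of 10 femurs was sequenced as 1 library per mouse. The authors trimmed reads with Cutadapt 2.10, aligned them to GRCm38.p6 with STAR 2.7.8a and counted them with featureCounts 2.0.2, and the deposited values are raw counts of reads per gene. For the annotation release and strand setting, nothing was given in the sources used here, and the labels name a human build although the gene identifiers are from mouse.

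The analysis used edgeR 4.0.16 under R 4.3.3. After a filter on low values (count of 10, total of 15), library sizes were adjusted by the trimmed mean of M values (TMM), and Old was compared with Young by the robust quasi-likelihood test with Benjamini-Hochberg adjustment over 22088 genes. A call needed an adjusted p of at most 0.05. CPM are counts relative to the TMM-scaled library size. For correlations log2 CPM had a prior count of 2. Marker shares are of all counts of a library, without TMM scaling, and were compared by exact permutation over 252 assignments. Each library is a separate mouse, so the tests set the age difference against variation between mice, which edgeR estimates in part across genes. The median standard error was 0.178 on the log2 scale.

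Named were the 9 genes, the called genes of 10 lists (at most 6 per direction) and the 3 genes most correlated with a called member. The values of 1 called list gene are not reported here, though the counts include it. The genes and lists were chosen with earlier results of these data known. Alternatives were other scalings and filters, DESeq2 1.42.0, limma-voom 3.58.1, thresholds, covariates, the replicate block and leaving out each library. The steps were tested on simulated data. Figures were made with Python 3.11.15 and matplotlib 3.10.9.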

Additional observations from a re-analysis of the deposited data

Results flagged for a closer look

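In 18 groups of 5 libraries (9 genes in Old and in Young mice), 2 held a library far from the other 4, and chance alone sets apart about 1 group in 20. Mdm2 was at 53.4 CPM in Young 5, and the nearest Young library was at 58.7 CPM. Il6 was at 0.277 CPM in Young 2, from 11 counts, and the nearest Young library was at 0.154 CPM.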

How the results depend on the processing

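Gdf15 kept its call in 24 of 26 alternatives and lost it with the T cell covariate (edgeR, adjusted p = 0.161) and the plasma cell covariate (adjusted p = 0.0663), where 0 of the 9 genes were called higher. The number of the 9 genes called higher was 1 to 2 over the fits that left out 1 library, the second being Cdkn2a without Old 3. With the replicate number as a block, the edgeR log2 fold changes were 1.78 for Gdf15 (adjusted p = 0.0158) and 0.90 for Cdkn2a (adjusted p = 0.215), and the block changed no call among the 9 genes but ended those of Trp53bp1, Xpc, Nupr1, Mcm6 and Mmp13. Same-numbered libraries correlated at -0.0996 to 0.188 in their deviations, and 1 of the 5 numbers matched its own best, so the numbers were not taken as pairs. Trp63 and Igfbp3 kept their calls in all 26 alternatives and Eda2r in all but the 0.01 threshold. With the T cell covariate every named list gene other than Trp63, Eda2r and Igfbp3 lost its call. The T cell markers themselves had a median log2 fold change of 1.10, and not every estimate shrank. Timp1 was at -1.82 ± 0.60 (SE) with the covariate and -1.88 ± 0.36 without it, and Ddit4 at -1.43 ± 0.40 and -1.08 ± 0.26. Il1b was at 0.48 ± 0.23 with it and 1.02 ± 0.21 without it, and Ccl5 at 0.33 ± 0.29 and 1.28 ± 0.29. The part of T cells in these calls was not tested. Over the pathway lists 11 genes, Gdf15 among them, were called higher and 13 lower. Of all 22088 tested genes 812 (3.68%) were called higher and 798 (3.61%) lower. The higher count was 6 with total counts alone, 3 at a threshold of 0.01, 7 at 1.5-fold or more, 7 with the marrow covariate, 3 with the T cell covariate and 6 to 12 with 1 library left out. The lower count was 25 with DESeq2, 1 at a threshold of 0.01, 6 with the muscle covariate, 2 with the marrow covariate, 3 with the T cell covariate and 3 to 22 with 1 library left out; the cause was not tested. Over all genes the counts higher and lower were 285 and 917 with total counts alone, 1545 and 1283 with DESeq2, 174 and 249 at the 0.01 threshold, 464 and 446 with the marrow covariate, 826 and 244 with the T cell covariate, 470 and 479 without Old 3, 300 and 386 without Young 2, and 366 and 448 without Young 4. Total counts alone moved the median log2 fold change of all genes to -0.16, and the signs of the uncalled genes other than Cdkn2a changed under at least 1 setting, so no direction is given for them. The macrophage, T cell and plasma cell covariates were added after seeing the data. By CPM alone Mdm2 ranked above Cdkn2c.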
